A study of Homo sapiens with 12 samples.

Results

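AP-1 and EGR immediate early genes encode transcription factors that cells switch on within minutes of a growth signal or a stress, before new protein is made. AP-1 is a pair of proteins, in most cases a FOS family member bound to a JUN family member, and the family members differ in how strongly they activate transcription. EGR proteins are zinc-finger factors of the same early response, and ATF3 is a related bZIP factor best known as a stress-induced repressor. The 10 genes described here are the FOS family (FOS, FOSB, FOSL1, FOSL2), the JUN family (JUN, JUNB, JUND), ATF3, EGR1 and EGR3. They were taken by gene symbol, 1 row each, from the 58735 rows of the count table.

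The cells were A549, an established human lung adenocarcinoma line, grown in RPMI1640 with 10% FBS in all groups. The attached control cells and the attached GFI1-overexpressing cells were untreated, and the floating control and floating GFI1-overexpressing cells had been forced into suspension for 48 hours. GFI1 is a zinc-finger transcription factor, mostly a repressor, that acts in blood cell development. It was delivered with a GFP-marked lentivirus under the human PGK promoter, and transduced cells were sorted by GFP. The vector of the control cells and whether the 3 libraries of a group came from separate cultures were not given in the sources used here, so the p values measure the spread between these libraries, which may be technical. Bulk libraries cannot tell a smaller number of expressing cells from less RNA per cell.

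The 12 libraries held 17014188 to 20748677 counts. GFI1 had 4 to 12 counts in control and 5154 to 12796 in GFI1-expressing libraries, as the labels state, and it was higher in floating (430, 545 and 706 CPM, counts per 1000000 counts of the library after TMM scaling) than in attached GFI1 cells (286 to 294 CPM). Of the epithelial markers, KRT7, KRT8 and KRT18 stood at 456.6 CPM or more in every library, whereas EPCAM had only 6 to 45 counts and CDH1, the cell adhesion protein E-cadherin, was at 120 CPM in attached control and 6.45 CPM in attached GFI1 cells. PTPRC and CD3E, which mark blood cells, and the fibroblast genes DCN, COL1A2 and LUM had 0 to 3 counts, whereas others of the same lists were detected, with 73 to 229 counts for CD14, 5 to 20 for ITGAM, 53 to 256 for COL1A1, 3 to 28 for PDGFRA and 1 to 66 for PDGFRB. CD14 was 2.29-fold higher with suspension in control cells (adjusted p = 5.52e-07), and PDGFRB was 15.9-fold higher with GFI1 in attached cells (adjusted p = 1.72e-08). Of the endothelial markers, CDH5 was 31.9-fold (adjusted p = 5.13e-11) and VWF 10.5-fold higher with GFI1 in attached cells (adjusted p = 3.73e-05), and PECAM1 and KDR were not tested. In that comparison KRT19 was higher (1.76-fold, adjusted p = 0.0314) and the other 5 epithelial markers were lower. The 6 epithelial markers summed to 10390 to 10990 CPM in attached control, 6529 to 6938 in floating control, 4222 to 4339 in attached GFI1 and 3039 to 3411 in floating GFI1 libraries, the 4 endothelial markers to 0.109 to 0.662 CPM in control and 3.55 to 5.52 CPM in GFI1-expressing libraries, the 6 fibroblast markers to 5.77 to 14.5 CPM in all, and the 5 blood markers to 5.27 to 8.21 CPM in attached control, 11.1 to 14.7 in floating control, 4.73 to 5.71 in attached GFI1 and 6.86 to 7.50 in floating GFI1 libraries. The epithelial and fibroblast sums did not overlap in any of the 4 comparisons, the blood sum overlapped only in GFI1 against control cells when attached, and the endothelial sum overlapped between attached and floating cells of either kind. The part of these markers in the results below was not tested. Floating GFI1 replicate 3 lay apart from the other 2 floating GFI1 libraries on the second principal component (-13.6 against -20.6 and -23.9), and in floating GFI1 replicate 2 the level was the highest of its group for 8 of the 10 genes. Results that rest on either library are given with and without it.

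Sequences before the transcription start were read for 7 of the 10 genes, because these elements are what the genes are best known for. FOSB, FOSL1 and EGR3 were not analysed for sequence. The serum response element, whose core is the CArG box bound by the factor SRF, is the classical route by which growth signals reach these genes. A CArG box was found in the 500 bases before the start of 2 of the 7 genes (FOS and EGR1), against 2.43% of all 35116 RefSeq promoters of that length. The window length was set after a search of a shorter window had been seen. The FOS box, 314 to 305 bases before the start, lay outside that shorter window. The shares of all promoters given here and below are therefore a description and not a test. EGR1 held 5 such boxes, and FOS held 1. The sequences below are from RefSeq starts on GRCh38.p14, written 5′ to 3′ on the gene's strand, upstream of the first exon, with the matched motifs in capitals.
FOS, chr14:75278489-75278548, plus strand, CArG box 314 to 305 bases before the start: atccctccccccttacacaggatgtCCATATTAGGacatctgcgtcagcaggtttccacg
EGR1, chr5:138465036-138465149, plus strand, 3 CArG boxes: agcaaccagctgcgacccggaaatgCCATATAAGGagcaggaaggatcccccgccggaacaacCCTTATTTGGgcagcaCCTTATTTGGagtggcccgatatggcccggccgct
EGR1, chr5:138465256-138465430, plus strand, an EGR site and 2 CArG boxes: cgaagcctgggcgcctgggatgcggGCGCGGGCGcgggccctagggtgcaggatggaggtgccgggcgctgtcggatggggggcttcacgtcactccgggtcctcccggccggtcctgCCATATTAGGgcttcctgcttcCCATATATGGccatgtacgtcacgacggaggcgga

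The second motif, the CRE (TGACNTCA), is bound by CREB, ATF and some AP-1 pairs. It was found in JUN, JUND and ATF3, against 10.9% of all promoters, on either strand. The variable base of the CRE was also set after the shorter search had been seen. The EGR site (GCGNGGGCG) was found in JUND and EGR1, against 11.2%, and the JUND matches lay outside the shorter window. JUND held 3 overlapping copies of it, and the JUN match read TGACATCA, 67 to 60 bases before the start. The AP-1 site itself (TGANTCA, in 11.9% of promoters) and a core of the GFI1 site (AAATCAC, in 6.2%) were not found in these windows, and FOSL2 and JUNB held none of the 5 motifs. These are matches of letters and do not show that a factor was bound.
JUND, chr19:18281790-18281847, minus strand, CRE 200 to 193 bases before the start: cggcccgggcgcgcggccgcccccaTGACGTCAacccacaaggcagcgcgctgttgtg
ATF3, chr1:212565259-212565316, plus strand, CRE 123 to 116 bases before the upstream of its 2 starts: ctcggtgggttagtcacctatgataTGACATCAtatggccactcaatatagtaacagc

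Levels of the 10 genes were compared per kilobase of the gene length in the table. In attached control cells JUND (45.1 CPM per kb) and FOSL2 (41.7 CPM per kb) were the highest and overlapped each other, followed by JUNB (23.1), FOSL1 (15.4) and JUN (14.1), of which the last 2 overlapped. ATF3 (1.32 CPM per kb), FOS (1.30) and EGR1 (0.714) were lower and overlapped their neighbours, and FOSB (0.0713) and EGR3 (0.0432) came last. Thus in these attached cells the AP-1 mRNA was almost all FOSL1, FOSL2 and JUN family mRNA. In the other 3 groups JUNB was the highest of the 10, without overlap with JUND, the next. FOS ranked 7 of 10 in attached control, 8 in attached GFI1, 4 in floating control (20.3 CPM per kb) and 3 in floating GFI1 cells (29.3 CPM per kb).

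**Figure D1:**
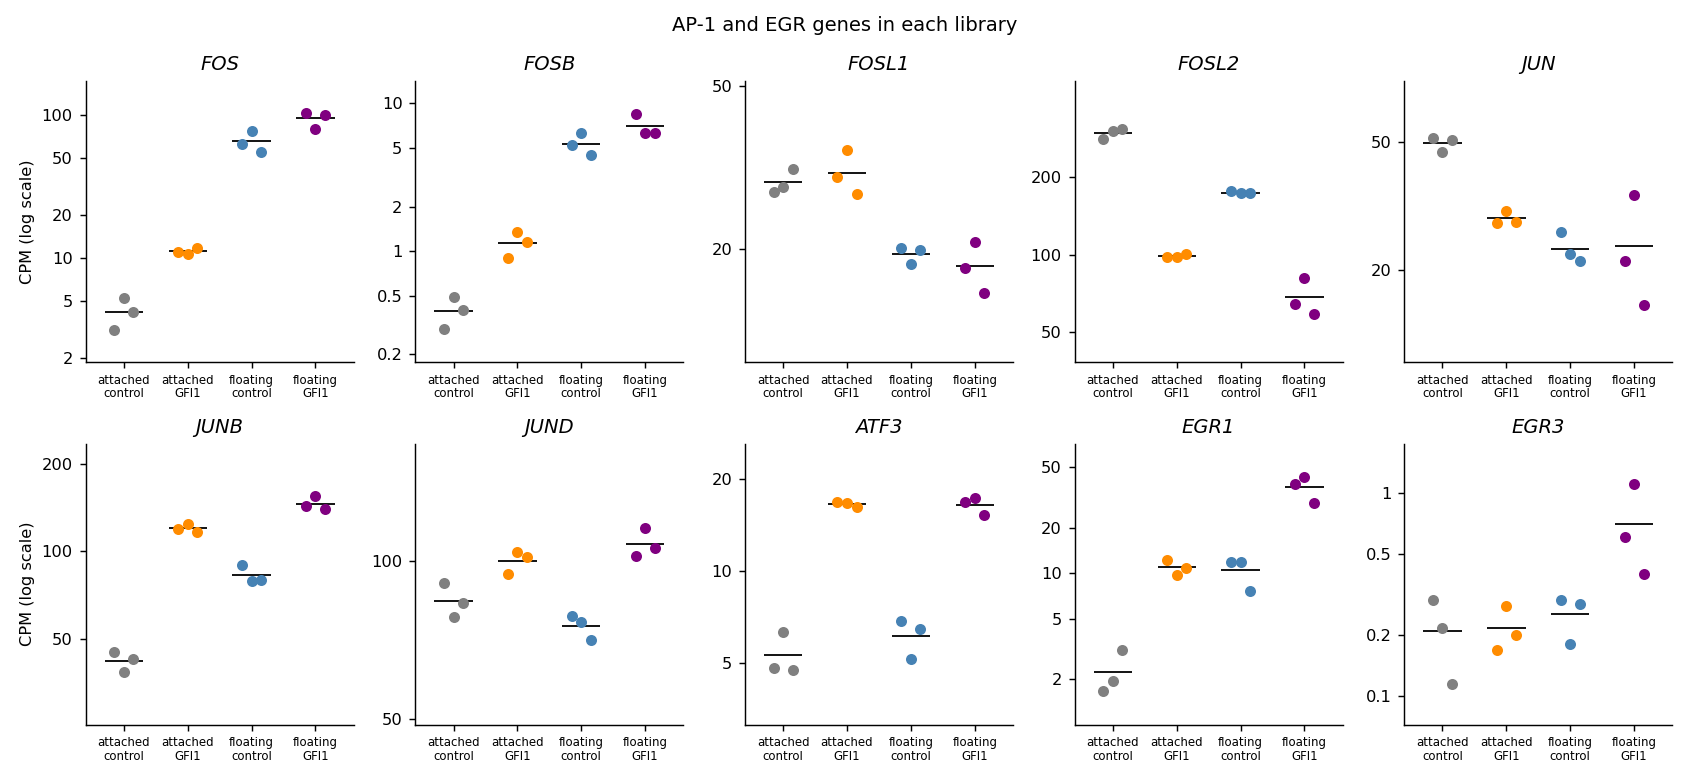
CPM of the 10 genes on a log scale, with 1 point per library (replicates 1 to 3 from left to right) and the mean as a line, in the 4 groups. FOS and FOSB step up in floating libraries, FOSL2 is lower in GFI1 libraries of either state, and the 3 floating GFI1 libraries are spread widely for JUN (15.6 to 34.2 CPM).

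Suspension was the first comparison, floating against attached cells of the same kind. In control cells FOS, FOSB, EGR1 and JUNB rose, and FOSL1, FOSL2, JUN and JUND fell. In GFI1-expressing cells FOS, FOSB, EGR1 and JUNB rose, and FOSL1 and FOSL2 fell. EGR3 was under the count filter and was not tested in the fit, a quasi-likelihood model in edgeR with p values adjusted by Benjamini-Hochberg over 17829 genes and called at 0.05 or less. Of the 9 genes tested, 4 were higher and 4 lower in floating control cells, where 19.6% of all genes tested were called higher and 20.5% lower. In GFI1-expressing cells 4 of the 9 were higher and 2 lower, against 15% and 16.3% of all genes. The median log2 fold change of the 9 genes was 0.21 in control and 0.11 in GFI1-expressing cells, beside medians of 0.01 and 0.00 over all genes.

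FOS (chr14:75278774-75282230, plus strand), the prototype AP-1 subunit, stood at 3.16, 5.27 and 4.19 CPM in attached control cells and at 63.1, 78.0 and 55.6 CPM in floating control cells. Every floating library exceeded every attached one by far. The log2 fold change was 3.95 ± 0.14 (SE, n = 3 per group, adjusted p = 8.46e-17), a 15.5-fold difference, and only 9 of the 17829 genes had a higher value. In GFI1-expressing cells FOS went from 10.9, 10.8 and 11.8 CPM when attached to 103, 80.4 and 101 CPM when floating. This difference was 3.09 ± 0.11 on the log2 scale (adjusted p = 3.78e-16), or 8.50-fold.

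FOSB (chr19:45467995-45475179, plus strand), a FOS paralogue with a strong activation domain, was far less abundant. In attached control cells it stood at 0.298, 0.489 and 0.402 CPM, from 5 to 9 counts, and in floating control cells at 5.22, 6.26 and 4.48 CPM. The log2 fold change of 3.71 ± 0.27 (adjusted p = 3.23e-11) was near that of FOS. GFI1-expressing cells went from 0.901, 1.34 and 1.15 CPM to 8.44, 6.29 and 6.27 CPM, a log2 fold change of 2.61 ± 0.20 (adjusted p = 3.11e-10).

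EGR1 (chr5:138465490-138469315, plus strand), the zinc-finger factor with 5 CArG boxes in the sequences above, stood at 1.67, 1.96 and 3.10 CPM in attached control and at 11.9, 11.9 and 7.59 CPM in floating control cells. The groups did not overlap, and the log2 fold change was 2.21 ± 0.22 (adjusted p = 9.94e-09). In GFI1-expressing cells the values went from 12.3, 9.79 and 10.8 CPM to 39.0, 43.1 and 29.3 CPM, by 1.76 ± 0.14 (adjusted p = 5.09e-10). Attached GFI1 cells thus held about as much EGR1 mRNA as floating control cells, with overlapping values. Only 85 genes rose by more than EGR1 in control cells and 110 in GFI1-expressing cells.

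JUNB (chr19:12791496-12793315, plus strand), which pairs with FOS proteins and is a weaker activator than JUN, stood at 45.1, 38.3 and 42.6 CPM in attached control and 89.4, 79.0 and 79.5 CPM in floating control cells. That was a log2 fold change of 0.98 ± 0.06 (adjusted p = 2.76e-12), with no overlap. In GFI1-expressing cells it rose from 119, 124 and 116 CPM to 143, 155 and 140 CPM, by only 0.28 ± 0.05 (adjusted p = 1.94e-04), again with no overlap. Its exons overlap those of HOOK2 on the opposite strand, and since the strand setting of the counting is not given, some of its counts could belong to HOOK2.

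The other FOS and JUN genes fell or stayed near their attached level. FOSL2 (FRA-2, chr2:28392448-28417312, plus strand), a FOS relative with no strong activation domain of its own, stood at 281, 304 and 309 CPM in attached control and at 177, 173 and 174 CPM in floating control cells. This was a fall of 0.77 ± 0.07 on the log2 scale (adjusted p = 7.57e-10), and it fell by 0.54 ± 0.07 in GFI1-expressing cells (adjusted p = 2.14e-06). FOSL1 (FRA-1, chr11:65892049-65900573, minus strand), its close relative, fell by 0.58 ± 0.10 in control (adjusted p = 2.21e-05) and by 0.76 ± 0.09 in GFI1-expressing cells (adjusted p = 5.49e-07). Its 6 attached libraries lay between 27.3 and 34.9 CPM and its 6 floating libraries between 15.7 and 20.8 CPM.

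JUN (chr1:58780788-58784327, minus strand), the prototype partner of FOS, stood at 51.6, 46.5 and 51.0 CPM in attached control and at 26.3, 22.5 and 21.4 CPM in floating control cells. It fell by 1.09 ± 0.15 on the log2 scale (adjusted p = 1.23e-06), opposite to FOS, and 258 of the 17829 genes had a lower value. In GFI1-expressing cells it stood at 28.1, 30.7 and 28.3 CPM when attached and at 21.4, 34.2 and 15.6 CPM when floating, so the groups overlapped. The difference was -0.30 ± 0.15 (adjusted p = 0.139). Without floating GFI1 replicate 2, the highest library, it was -0.67 (adjusted p = 7.72e-07), and without replicate 3 it was -0.06. Without the count filter the fall was called (-0.29, adjusted p = 8.32e-04).

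JUND (chr19:18279760-18281622, minus strand), the JUN family member that resting cells express constantly, hardly moved with suspension. Its log2 fold change was -0.16 ± 0.06 in control cells (adjusted p = 0.0341), with overlapping groups, and this call was lost in several alternatives. These were DESeq2 (adjusted p = 0.0654), upper quartile scaling (adjusted p = 0.0564), library size only (adjusted p = 0.0544) and the fits without attached control replicate 1 (-0.10, adjusted p = 0.212), attached control replicate 3 (-0.17, adjusted p = 0.0558), floating control replicate 2 (-0.17, adjusted p = 0.0526) or floating control replicate 3 (-0.12, adjusted p = 0.177). The value in GFI1-expressing cells was 0.11 ± 0.06 (adjusted p = 0.158). ATF3 (chr1:212565334-212620777, plus strand) was at 4.82, 6.35 and 4.76 CPM in attached control and 6.88, 5.18 and 6.46 CPM in floating control cells, and the groups overlapped. Its log2 fold changes were 0.21 ± 0.13 (adjusted p = 0.228) in control and -0.01 ± 0.10 (adjusted p = 0.939) in GFI1-expressing cells, with 95% intervals of -0.07 to 0.49 and -0.22 to 0.19.

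The second comparison was GFI1-expressing against control cells in the same state. Suspension and GFI1 comparisons share libraries (attached control enters both, for example), so their values are set side by side and not counted together. In attached cells FOS, FOSB, JUNB, JUND, ATF3 and EGR1 were higher with GFI1, FOSL2 and JUN were lower, and FOSL1 did not pass the test. These were 6 of 9 higher and 2 of 9 lower, where 29.5% of all genes were called higher and 32.8% lower. In floating cells the same 6 genes were higher and FOSL2 was lower (6 and 1 of 9), where 29.3% of all genes were called higher and 31.1% lower. The median log2 fold change of the 9 genes was 1.40 in attached and 0.52 in floating cells, beside -0.01 and 0.01 over all genes.

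**Figure D2:**
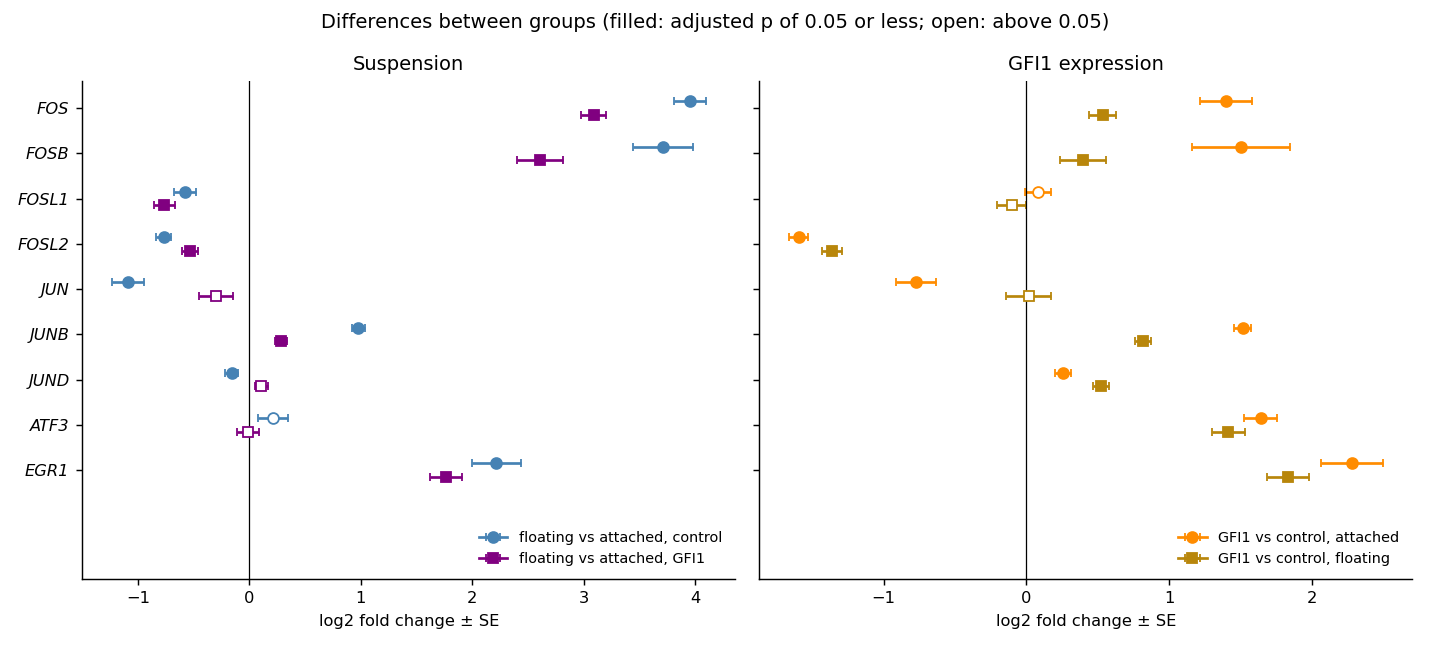
Log2 fold changes of the 9 genes tested with their SE, for suspension (left) and GFI1 expression (right), n = 3 libraries per group. Filled symbols had an adjusted p of 0.05 or less. FOS, FOSB and EGR1 lie far to the right for suspension, FOSL2 lies left of 0 in all 4 comparisons, and ATF3 lies near 0 for suspension and at 1.64 and 1.41 for GFI1.

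EGR1 had the largest GFI1 difference of the 9 genes. It was higher by 2.28 ± 0.22 on the log2 scale in attached cells (adjusted p = 1.15e-09), a 4.85-fold difference, and by 1.83 ± 0.15 in floating cells (adjusted p = 4.43e-11), a 3.55-fold difference. The values of each library given above did not overlap between GFI1 and control cells in either state. ATF3 was next and differed by GFI1 but not detectably by suspension. With GFI1 it stood at 16.9, 16.8 and 16.2 CPM in attached cells and 16.8, 17.3 and 15.3 CPM in floating cells, against 4.76 to 6.88 CPM in all 6 control libraries. Its log2 fold changes were 1.64 ± 0.12 in attached (adjusted p = 4.24e-12) and 1.41 ± 0.11 in the floating state (adjusted p = 5.98e-11).

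FOSL2 was the FOS family gene that fell with GFI1. It stood at 97.9, 97.8 and 101 CPM in attached GFI1 cells, without overlap with the 281 to 309 CPM of attached control cells. The fall was 1.59 ± 0.07 on the log2 scale (adjusted p = 1.55e-16), or 3.02-fold. In floating cells it fell by 1.36 ± 0.07 (adjusted p = 9.97e-15), to 64.4, 81.5 and 58.8 CPM. FOSL1 differed little, by 0.08 ± 0.09 in attached (95% interval -0.10 to 0.27, adjusted p = 0.449) and by -0.10 ± 0.10 in the floating state (95% interval -0.31 to 0.10, adjusted p = 0.384). The sign of these 2 values changed under another scaling or without 1 library.

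In attached cells FOS was higher with GFI1 by 1.40 ± 0.18 on the log2 scale (adjusted p = 2.54e-07), and FOSB was 2.83-fold higher (SE 0.34 on the log2 scale, adjusted p = 5.19e-04). When the cells floated, FOS differed by 0.53 ± 0.09 (adjusted p = 2.33e-05) and FOSB by 0.40 ± 0.16 (adjusted p = 0.0404). The lowest FOS value of the floating GFI1 libraries, 80.4 CPM, was close to the highest floating control value, 78.0 CPM. The FOSB call in floating cells was lost in DESeq2 (adjusted p = 0.164), without the count filter (adjusted p = 0.0516), and without floating control replicate 1 (0.38, adjusted p = 0.0945), floating control replicate 3 (0.28, adjusted p = 0.194) or floating GFI1 replicate 1 (0.25, adjusted p = 0.244).

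In the JUN family, GFI1 cells held 2.85-fold more JUNB than control cells when attached, a difference of 1.51 ± 0.06 on the log2 scale (adjusted p = 2.89e-17). The floating libraries differed 1.76-fold for this gene (0.82 ± 0.06, adjusted p = 2.09e-12). JUND was higher by 0.25 ± 0.06 in attached (adjusted p = 4.26e-04) and 0.52 ± 0.06 in the floating state (adjusted p = 2.10e-08), with no overlap in either state (94.2 to 104 against 78.3 to 90.6 CPM, and 102 to 115 against 70.6 to 78.4 CPM). JUN was lower by 0.77 ± 0.14 in attached GFI1 cells (adjusted p = 3.32e-05). Its value in floating cells was 0.01 ± 0.16 (adjusted p = 0.943), and it turned to -0.34 (adjusted p = 0.00388) when floating GFI1 replicate 2 was left out. With library size only as the scaling, the median log2 fold change of all genes moved to 0.14 in both GFI1 comparisons, and 61.5% of called genes were higher in attached and 61.4% in floating cells, against 47.4% and 48.5% with TMM. The 6 genes higher and the 2 lower in attached cells kept their direction and call under that scaling, and FOSL1 was then called higher in attached cells (0.23, adjusted p = 0.0287).

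EGR3 was near the limit of detection. It had 5, 4 and 2 counts in attached control, 3, 6 and 4 in attached GFI1, 5, 3 and 5 in floating control and 11, 20 and 8 in floating GFI1 libraries. The floating GFI1 libraries were above all others, at 0.398 to 1.10 CPM against 0.115 to 0.298 CPM. Without the count filter, edgeR gave log2 fold changes of 1.43 ± 0.54 for GFI1 in floating cells (adjusted p = 0.0312) and 1.65 ± 0.54 for suspension in GFI1-expressing cells (adjusted p = 0.0192), whereas DESeq2 gave an adjusted p of 0.0928 for the first and none for the second. Without floating GFI1 replicate 2, the library with 20 counts, these values were 0.95 (adjusted p = 0.347) and 1.18 (adjusted p = 0.327). The GFI1 call was also lost without any 1 of the floating control libraries (adjusted p = 0.0503 to 0.12), and the suspension call without attached GFI1 replicate 1 (adjusted p = 0.0751) or 3 (adjusted p = 0.0674). A long noncoding RNA overlaps EGR3 exons on the opposite strand, so these few counts are also uncertain in origin.

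Whether suspension acted differently in GFI1-expressing and control cells was tested as an interaction, the suspension effect in GFI1-expressing cells minus that in control cells. FOS and JUNB had lower and JUN and JUND higher values, so 2 of 9 genes were called higher and 2 lower, where 4.76% of all genes were called higher and 6.01% lower. The FOS interaction was -0.86 ± 0.21 (adjusted p = 0.00655) and that of JUNB -0.70 ± 0.08 (adjusted p = 1.61e-06). On the log2 scale both genes thus rose by less in GFI1-expressing cells, which began from higher attached levels. In mean CPM, FOS rose by more in GFI1-expressing cells (from 11.15 to 94.74) than in control cells (from 4.204 to 65.57). The JUN interaction was 0.79 ± 0.21 (adjusted p = 0.0147), and leaving out floating GFI1 replicate 2 brought it to 0.41. The JUND interaction was 0.27 ± 0.08 (adjusted p = 0.0347). JUNB alone of the 4 kept its call in each alternative that used only the adjusted p. The FOS call was lost with robust empirical Bayes (adjusted p = 0.132), the JUN call there (0.203) and in DESeq2 (adjusted p = 0.141), and the JUND call in DESeq2 (adjusted p = 0.0546) and in 7 of 12 fits without 1 library. FOSB (-1.11 ± 0.39, adjusted p = 0.0679), EGR1 (-0.45 ± 0.28, adjusted p = 0.356), ATF3 (-0.23 ± 0.17, adjusted p = 0.464), FOSL1 (-0.18 ± 0.13, adjusted p = 0.455) and FOSL2 (0.23 ± 0.10, adjusted p = 0.138) did not pass the test. FOSL2 passed it without floating GFI1 replicate 3 (0.33, adjusted p = 0.00499) and without the count filter (0.25, adjusted p = 0.0115), and FOSB without floating GFI1 replicate 1 (-1.27, adjusted p = 0.0345).

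Because AP-1 dimers draw on the pool of available subunits, the share of each gene in its family was computed from CPM per kb. FOSL2 made up 71.3% ± 0.64 (SD, n = 3) of the FOS family mRNA in attached control, 41.0% ± 2.61 in attached GFI1, 43.7% ± 2.57 in floating control and 19.2% ± 3.73 in floating GFI1 cells. FOS made up 2.21% ± 0.49, 10.2% ± 0.96, 36.0% ± 4.18 and 58.8% ± 6.62 in the same order. The leading FOS family mRNA was therefore FOSL2 in attached and floating control cells, FOSL1 (48.2% ± 3.54) in attached GFI1 cells and FOS in floating GFI1 cells. The FOSL1 lead in attached GFI1 cells rests on the division by gene length, since without it FOSL2 led there with 69.7% against 21.7% for FOSL1. Without that division, the FOS and FOSL2 shares also overlapped in floating GFI1 libraries (42.5% to 55.6% and 32.4% to 43.1%). In floating control replicate 2, FOSL2 and FOS were close even per kb (40.9% and 40.7%). FOSB did not exceed 2.93% in any library.

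Per kb of gene length, the FOS family sum overlapped between attached and floating control cells and was lowest in attached GFI1 cells. The sums rest on the division by gene length, since without it FOSL2 made up 89.85% of the family in attached control cells. The FOS family sum was 54.9 to 61.2 CPM per kb in attached control, 52.8 to 59.2 in floating control, 48.4 to 51.8 in floating GFI1 and 32.4 to 35.7 in attached GFI1 libraries. The JUN family sum was higher in GFI1-expressing cells, at 124 to 132 CPM per kb attached and 138 to 156 floating, than in control cells, at 76.2 to 88.0 attached and 87.7 to 98.7 floating. Within it JUNB went from 28.1% ± 0.40 in attached control to 51.5% ± 1.17 in attached GFI1, 49.2% ± 1.17 in floating control and 55.4% ± 1.07 in floating GFI1 cells. JUN went from 17.1% ± 0.49 to 6.42% ± 0.11, 7.14% ± 0.34 and 4.57% ± 1.51, and JUND from 54.8% ± 0.66 to 42.0% ± 1.19, 43.7% ± 1.34 and 40.0% ± 1.05. A share can fall only because another gene of the family rises. The JUND share was lower with GFI1 although its mean level was higher (99.97 against 83.94 CPM attached, 107.8 against 75.17 CPM floating). In 26 of the 28 comparisons of a share between 2 groups, the libraries did not overlap, which gives the smallest p an exact two-sided permutation test of 3 against 3 allows (p = 0.1, adjusted p = 0.108). The exceptions were FOSL1 with GFI1 in floating cells (exact p = 0.8) and JUND with suspension in GFI1-expressing cells (exact p = 0.2). Such a test cannot reach 0.05, and the shares of 1 family are not independent of each other.

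**Figure D3:**
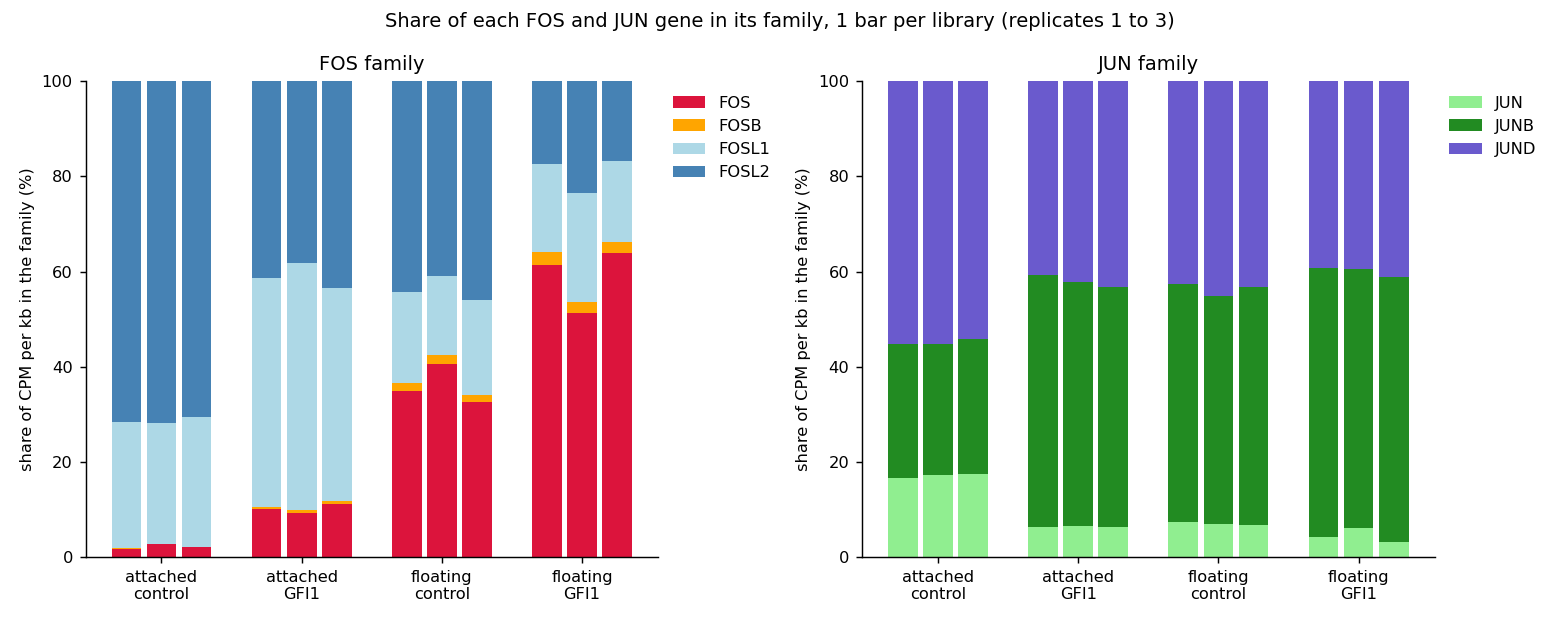
Share of each gene in the summed CPM per kb of the FOS family (left) and the JUN family (right), in percent, with 1 stacked bar per library and the 4 groups from left to right. FOS takes 1.78% to 2.74% of its family in attached control and 51.3% to 63.9% in floating GFI1 libraries, and JUNB takes 27.6% to 28.4% of its family in attached control and at least 47.8% in all other libraries.

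The genes whose log2 CPM followed each gene most closely over the 12 libraries were sought among 11886 protein-coding genes. The libraries fall into 4 groups, so these coefficients largely reflect group means and are given as a description. FOS and FOSB were each other's closest match (Pearson's r = 0.996), followed for both by DDIT4L and KDM4C (r = 0.988 to 0.990). EGR1 was closest to TMEM47, OSMR and CITED2 (r = 0.988, 0.988 and 0.984), and ATF3 to RUNX2 and BAZ2A (r = 0.991 for both). JUNB was closest to DYRK1B, MEGF6 and PBXIP1 (r = 0.994, 0.993 and 0.992), FOSL2 to ODF2, YARS and SEH1L (r = 0.996, 0.995 and 0.991), and JUND to H1FX, PYGB and MELTF (r = 0.969, 0.961 and 0.960). The closest matches were weaker for JUN, namely MTHFD1L, ATF5 and DOT1L (r = 0.964, 0.947 and 0.944), and for FOSL1, namely SZRD1, JADE1 and LACTB (r = 0.955, 0.952 and 0.944).

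Other immediate early genes were measured beside the 10. Of the 25 tested, 13 were higher and 5 lower with suspension in control cells, where 19.6% and 20.5% of all genes were called, and 14 were higher and 2 lower in GFI1-expressing cells, where 15% and 16.3% were called. These shares over all genes also stand beside the counts of the lists that follow. The lowest adjusted p among the higher genes belonged to ZFP36, which encodes an mRNA-destabilising protein, in control (log2 fold change 1.02 ± 0.06, adjusted p = 3.70e-12) and to TRIB1, a pseudokinase gene, in GFI1-expressing cells (0.83 ± 0.05, adjusted p = 4.30e-13). MYC, the growth regulator, had the lowest adjusted p of the genes that fell, by 0.30 ± 0.05 in control (adjusted p = 2.02e-05) and by 0.70 ± 0.06 in GFI1-expressing cells (adjusted p = 4.10e-10). For GFI1 the counts were 12 higher and 10 lower among attached libraries, and 14 and 9 among floating ones, beside 29.5% and 32.8%, and 29.3% and 31.1%, of all genes. By adjusted p, IER5 led the higher genes (1.06 ± 0.04, adjusted p = 3.17e-17, attached; 1.04 ± 0.04, adjusted p = 4.90e-17, floating), and MYC the lower ones (-1.19 ± 0.05, adjusted p = 1.34e-16; -1.59 ± 0.05, adjusted p = 1.16e-18). The medians of these 25 genes were 0.22 and 0.38 for suspension and 0.24 and 0.35 for GFI1, in the order given. In the interaction 4 were higher, led by KLF6 (0.70 ± 0.09, adjusted p = 3.92e-06), and 4 lower, led by MYC (-0.40 ± 0.07, adjusted p = 4.87e-04). Of all genes, 4.76% were called higher and 6.01% lower there. These shares and the GFI1 shares above also stand beside the counts of the lists that follow.

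**Figure D4:**
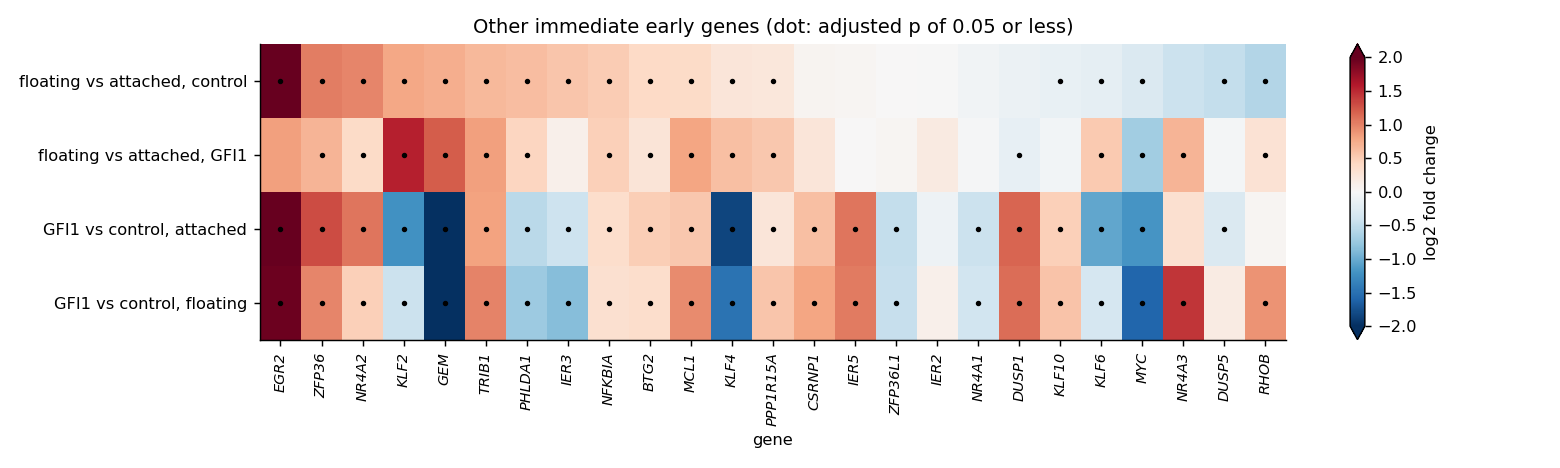
Log2 fold changes of 25 other immediate early genes in the 4 comparisons, ordered by the suspension effect in control cells, with a dot for an adjusted p of 0.05 or less. Colours stop at 2 in either direction. GEM reaches the blue end of the scale in both GFI1 rows, and EGR2 reaches the red end for suspension in control cells and for GFI1 in attached cells but is listed at 0 in attached control cells and at a mean of 0.787 CPM or less in the other groups.

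The signalling route to these genes runs from the MAP kinases to SRF and its partners of the ELK and MRTF families. Among 18 such genes, 4 were higher and 7 lower with suspension in control cells and 7 higher and 3 lower in GFI1-expressing cells. MRTFA, an actin-regulated SRF partner, had the lowest adjusted p of the genes that fell in all 4 comparisons. It fell with GFI1 by 1.59 ± 0.05 in attached (adjusted p = 5.32e-19) and 1.11 ± 0.06 in the floating state (adjusted p = 4.01e-15), and with suspension by 0.76 ± 0.05 in control (adjusted p = 5.50e-12) and 0.28 ± 0.06 in GFI1-expressing cells (adjusted p = 5.08e-04). SRF itself had the lowest adjusted p of the interaction, 0.56 ± 0.08 (adjusted p = 1.08e-05), for which 4 of the 18 were higher and 0 lower in edgeR (0 lower also at an unadjusted p under 0.05 and in DESeq2). For GFI1 the counts were 5 higher and 9 lower in the attached state (median -0.16) and 8 and 7 in the floating state (median 0.06), beside 29.5% and 32.8%, and 29.3% and 31.1%, of all genes. The share of genes called higher in the attached state was thus near that of all genes. The kinase genes RPS6KA3 (0.42 ± 0.05, adjusted p = 1.89e-08) and MAP2K2 (0.52 ± 0.05, adjusted p = 1.73e-09) led the higher ones in attached and floating cells. For suspension they were RPS6KA3 in control (0.28 ± 0.05, adjusted p = 2.95e-05) and RPS6KA5 in GFI1-expressing cells (0.71 ± 0.10, adjusted p = 2.39e-06). These are mRNA levels and do not measure kinase activity.

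Of 16 other AP-1-related bZIP genes tested, 9 were higher and 3 lower with suspension in control cells, and 6 higher and 1 lower in GFI1-expressing cells. JDP2, which encodes a repressive partner of JUN proteins, had the lowest adjusted p of the genes that fell in all 4 comparisons. It fell with GFI1 from 20.4 to 6.11 CPM in attached cells (-1.75 ± 0.11, adjusted p = 2.06e-13) and from 9.37 to 4.10 CPM in floating cells (-1.20 ± 0.13, adjusted p = 7.31e-09). BACH1, a repressor that pairs with small MAF proteins, rose with suspension in control cells (1.23 ± 0.07, adjusted p = 1.29e-12) and with GFI1 in attached cells (1.52 ± 0.07, adjusted p = 1.42e-15). Its interaction was -0.90 ± 0.10 (adjusted p = 4.50e-07). The small MAF genes led the other comparisons, MAFF for suspension in GFI1-expressing cells (1.40 ± 0.15, adjusted p = 6.38e-08) and MAFK for GFI1 in floating cells (2.09 ± 0.10, adjusted p = 1.22e-15). For GFI1 the counts were 9 higher and 4 lower in the attached state and 8 and 4 in the floating state. Of all genes, 29.5% were higher and 32.8% lower attached, and 29.3% and 31.1% floating. The counts of lower genes were not above those shares. The interaction had 3 higher, led by MAFK (0.76 ± 0.14, adjusted p = 3.57e-04), and 5 lower, where 4.76% of all genes were called higher and 6.01% lower.

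Genes known as AP-1 targets did not move in 1 direction. Of the 7 tested of 12 listed, 4 were higher and 2 lower with suspension in control cells, and 2 and 2 in GFI1-expressing cells. With GFI1, 3 were higher and 3 lower in either state. Of all genes, 29.5% were higher and 32.8% lower with GFI1 attached, and 29.3% and 31.1% floating. PLAU, the urokinase protease gene, fell in all 4 comparisons, from 85.2 CPM in attached control to 49.3 in floating control, 23.2 in attached GFI1 and 8.64 in floating GFI1 cells (adjusted p of 1.36e-11 or less in each). SPP1, the gene of the matrix protein osteopontin, rose with suspension in control cells (0.55 ± 0.05, adjusted p = 1.09e-09) and with GFI1 in attached cells (0.92 ± 0.05, adjusted p = 6.98e-15). TIMP1, a protease inhibitor gene, led the genes that rose with suspension in GFI1-expressing cells (0.53 ± 0.08, adjusted p = 1.07e-05), and CCND1, the cyclin D1 gene, those that rose with GFI1 in floating cells (0.58 ± 0.04, adjusted p = 2.29e-12). The interaction had 0 higher and 3 lower, led by SPP1 (-0.45 ± 0.07, adjusted p = 3.96e-05) (edgeR), where 4.76% of all genes were called higher and 6.01% lower. None of the AP-1 targets was higher in the interaction at an unadjusted p under 0.05 either (0 of 7), or in DESeq2 (0 of 7).

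The regulators and targets of EGR proteins were a list of 7 genes, all tested. With suspension 4 were higher and 0 lower in both control and GFI1-expressing cells by edgeR, with 0 lower also at an unadjusted p under 0.05 and in DESeq2. For GFI1, 3 rose and 1 fell in the attached state, and 5 rose and 1 fell in the floating state. Of all genes, 29.5% were higher and 32.8% lower attached, and 29.3% and 31.1% floating. PDGFB, a growth factor gene whose promoter EGR1 can bind, had the largest log2 fold changes of the list for GFI1 in both states. It stood at 7.20 CPM in attached control and 53.4 CPM in attached GFI1 cells (log2 fold change 2.89 ± 0.12, adjusted p = 5.61e-17), and at 6.40 CPM in floating control and 86.9 CPM in floating GFI1 cells (3.76 ± 0.12, adjusted p = 2.02e-19). Suspension raised PDGFB in GFI1-expressing cells (0.70 ± 0.09, adjusted p = 5.21e-07) but gave -0.17 ± 0.17 in control cells (adjusted p = 0.46), and the interaction was 0.87 ± 0.19 (adjusted p = 0.00243). NAB1, which encodes a corepressor of EGR proteins, was the gene that fell with GFI1, by 0.27 ± 0.06 in attached (adjusted p = 6.84e-04) and 0.43 ± 0.06 in the floating state (adjusted p = 1.29e-06).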

How the data were processed

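RNA-Seq of 12 A549 libraries was compared in 4 groups of 3, taken from the sample labels. The deposited values are raw counts per gene on GRCh38/hg38. The authors' methods name FastQC v0.11.8, Hisat2 v2.0.5 and featureCounts v1.5.0-p3, whereas the submitters' processing notes name Bowtie2 and HTSeq. The annotation release and strand setting were not given in the sources used here, so overlapping genes are uncertain. Depth was 17014188 to 20748677 counts per library, and gene totals of a few counts carry large counting error.

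The edgeR package (4.0.16, R 4.3.3) was used for the counts. Its filterByExpr function (minimum count 10, minimum total count 15) left 17829 genes, which were scaled by TMM. A quasi-likelihood model with 4 group means gave 5 contrasts. Two-sided p values were corrected by the Benjamini-Hochberg method across all genes of a contrast, and calls needed an adjusted p of 0.05 or less. Log2 CPM used a prior count of 2. Levels between genes were divided by the gene length in the table.

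Motifs were sought on both strands in the 500 bases before each RefSeq start, read from the hg38 genome. The length of the window and the variable base of the CRE were set after a search of 250 bases had been seen. For each list other than the 10 genes, 1 gene per direction is named, that of lowest adjusted p, and EGR2, the marker genes CDH1, KRT19, CD14, PDGFRB, CDH5 and VWF, and the PDGFB, PLAU, JDP2 and BACH1 values of other comparisons were added after they were seen. The 3 genes most like each of the 10 by Pearson's r are given among protein-coding genes averaging 1 or more on the log2 CPM scale. A few items chosen by these rules are not reported here. The members and lists were chosen with earlier results of these data known. Alternatives were DESeq2 1.42.0, 3 other scalings, 2 other filters, robust empirical Bayes, 2 groups only, a replicate block, a 2-fold minimum, no division by length and leaving out each library. The code was tested on simulated data.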

Additional observations from a re-analysis of the deposited data

Results flagged for a closer look

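The suspension effect differed between GFI1-expressing and control cells, by the interaction term of the edgeR model, for 4 of the 9 genes tested. These were 2 higher and 2 lower, where 4.76% of all genes were called higher and 6.01% lower. Only JUNB of the 4 kept its call both in DESeq2 and with robust empirical Bayes. FOS rose 8.50-fold in GFI1-expressing and 15.5-fold in control cells, an interaction of -0.86 on the log2 scale (adjusted p = 0.00655), with the direction seen in all 12 fits without 1 library (-1.06 to -0.70). JUNB had an interaction of -0.70 (adjusted p = 1.61e-06, -0.76 to -0.63 without 1 library). JUN had an interaction of 0.79 (adjusted p = 0.0147), which ranged from 0.41 without floating GFI1 replicate 2 to 1.03 without floating GFI1 replicate 3. JUND had an interaction of 0.27 (adjusted p = 0.0347), and leaving out 1 library gave 0.20 to 0.32. Floating GFI1 replicates 2 and 3 differed more from each other than any other pair of replicates (chi-square per gene 11.8, against 2.01 to 4.99), and their GFI1 levels were 706 and 430 CPM. The part of that difference in these values was not tested.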

How the results depend on the processing

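Of 976 values of the 9 genes under an alternative, 922 kept their direction and their side of the threshold, 40 lost and 6 gained the call, and 8 changed sign. The sign changes were of values whose main estimate was near 0 and not called, and 1 of them became a called fall (JUN without floating GFI1 replicate 2). They were ATF3 for suspension in GFI1-expressing cells with upper quartile scaling (0.0017) and without floating GFI1 replicate 3 (0.039, the range without 1 library being -0.065 to 0.039), FOSL1 for GFI1 in floating cells with library size only (0.025) and in attached cells without attached GFI1 replicate 2 (-0.026, range -0.026 to 0.16), and JUN for GFI1 in floating cells with the replicate block (-0.0006) and without floating control replicate 2 (-0.016), floating control replicate 3 (-0.048) or floating GFI1 replicate 2 (-0.34, adjusted p = 0.00388, range -0.34 to 0.25).

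The number of genes called in the interaction fell from 4 to 2 in DESeq2 (0 higher) and to 2 with robust empirical Bayes (1 higher, 1 lower), and the cause was not tested. Without 1 library, 1 to 2 were called higher in the interaction in all but 1 fit. In that fit, without floating GFI1 replicate 3, FOSL2 (0.33, adjusted p = 0.00499) was called higher beside JUN and JUND. For GFI1 in floating cells, 1 to 2 were called lower without 1 library. A 2-fold minimum on top of the adjusted p calls fewer genes by construction. GFI1 in attached cells then had 1 of the genes lower, in floating cells 3 called (2 higher), suspension in control cells 4 (1 lower), in GFI1-expressing cells 3 (0 lower), and the interaction 0 (0 higher, 0 lower). Over all genes 3247 were called for GFI1 in attached cells (1730 higher, 1517 lower), 3078 in floating cells (1505 and 1573), 909 for suspension in control cells (660 and 249), 500 in GFI1-expressing cells (353 and 147) and 241 in the interaction (95 and 146). Without division by gene length the FOS share of its family was 1.26%, 7.87%, 24.6% and 50.4%, the FOSL1 and FOSL2 shares in attached GFI1 cells were 21.7% and 69.7%, so that FOSL2 and not FOSL1 led there, and the JUNB share was 23.9%, 48.1%, 45.6% and 52.6%, where 4 values are those of attached control, attached GFI1, floating control and floating GFI1 cells.

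Libraries of the same number showed no detectable pairing: the correlation of their deviations ran from -0.031 to 0.031 over 18 pairs, with 0 over 0.1. These correlations cannot show whether they were made together. With the replicate block, the 9 genes had the same counts of calls (8, 7, 8, 6 and 4 in the 5 contrasts), and over all genes 11054, 10713, 7110, 5546 and 1904 were called. The fits of EGR3 without the count filter and without 1 library were chosen after seeing the data. FOSB and EGR3 rest on few counts, and a difference in EGR3 among the other 3 groups was not detectable at this depth.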

Other observations

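Heat shock and integrated stress response genes were measured beside the immediate early genes. Of 10 heat shock genes, 9 were lower and 0 higher with suspension in control cells and 8 lower and 0 higher in GFI1-expressing cells by edgeR, with 0 higher also at an unadjusted p under 0.05 and in DESeq2. With GFI1, 9 were lower in attached and 8 in floating cells, again with 0 higher by each of these counts. Of all genes, 32.8% and 31.1% were lower and 29.5% and 29.3% higher with GFI1. With suspension, 20.5% were lower in control and 16.3% in GFI1-expressing cells, and 19.6% and 15% higher. The summed level of the heat shock genes was 6945 to 7294 CPM in attached control, 5661 to 5824 in floating control, 4713 to 4791 in attached GFI1 and 3818 to 4115 in floating GFI1 libraries, without overlap. DNAJB1, a cochaperone gene, had the lowest adjusted p with GFI1 in attached cells (-1.05 ± 0.04, adjusted p = 6.52e-17), HSPD1, the mitochondrial chaperonin gene, in floating cells (-0.96 ± 0.05, adjusted p = 1.41e-15), HSPB1 with suspension in control cells (-0.50 ± 0.05, adjusted p = 3.54e-09) and HSP90AA1 in GFI1-expressing cells (-0.46 ± 0.05, adjusted p = 3.80e-08). FOS, FOSB and EGR1 rose in the same floating libraries in which chaperone mRNAs were lower, and a link between these changes was not tested. In the interaction 2 were higher, led by DNAJB1 (0.33 ± 0.06, adjusted p = 5.37e-04), where 4.76% of all genes were called higher.

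Of 10 integrated stress response genes, the programme run by ATF4, suspension raised 4 and lowered 2 in control cells and raised 5 and lowered 1 in GFI1-expressing cells. DDIT4, an inhibitor of mTOR signalling, had the lowest adjusted p of those that rose, at 0.96 ± 0.05 in control (adjusted p = 1.03e-13) and 0.44 ± 0.05 in GFI1-expressing cells (adjusted p = 3.26e-07), and its interaction was -0.52 ± 0.07 (adjusted p = 1.82e-05). PSAT1, a serine synthesis gene, fell in all 4 comparisons, from 261 CPM in attached control to 160 in floating control, 82.6 in attached GFI1 and 41.4 in floating GFI1 cells (adjusted p of 6.81e-12 or less in each). For GFI1 the counts were 2 higher and 6 lower in the attached state and 3 and 3 in the floating state, and SESN2, a stress-induced gene, led the higher ones (0.67 ± 0.08, adjusted p = 1.25e-07, and 0.63 ± 0.08, adjusted p = 3.35e-07). Of all genes, 29.5% were higher and 32.8% lower with GFI1 attached, and 29.3% and 31.1% floating. The floating counts were near those shares. With suspension, 19.6% were higher and 20.5% lower in control cells, and 15% and 16.3% in GFI1-expressing cells.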
